A study of Mus musculus with 6 samples.

Results

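The mast cell genes were Cma1, Mcpt4, Cpa3, Tpsb2, Ms4a2, Fcer1a, Kit, Hdc and Gata2, a set of 9 taken by gene symbol from the 47069 genes counted in mouse lung. RNA was sequenced from the lungs of 3 adult wild type C57BL/6J mice (WT4 to WT6) and 3 adult Zpbp2 KO mice (KO4 to KO6), with 1 library per mouse and all lungs taken at ZT10, counted in hours after lights on. The KO strain carries a deletion of the first exons of Zpbp2, in all cells and on the C57BL/6J background, and both genotypes were bred in the same colony, without treatment. Library totals ran from 19981428 (KO6) to 46796908 (KO5) gene counts. Zpbp2 itself had 1, 2 and 2 counts (WT4 to WT6) and 0 counts in each KO mouse, too few to check the deletion from these counts.

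Mast cells are tissue leukocytes that mature in place under the control of KIT, the receptor of stem cell factor, and of the transcription factor GATA2. They store histamine and proteases in granules and release them when IgE bound to its high-affinity receptor is cross-linked by antigen, which makes them central to the early phase of allergic asthma. In the mouse lung, mature mast cells of the connective tissue type lie mainly around the large airways and vessels and are few without inflammation.

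In whole lung the 9 genes fell into 2 ranges of level. The granule protease genes (Cma1, Mcpt4, Cpa3, Tpsb2) and the genes of the IgE receptor (Ms4a2, Fcer1a), which are close to specific for mast cells and basophils, lay between 0.0488 and 2.68 CPM (read counts relative to the library total) in every mouse. Kit, Hdc and Gata2 lay between 52.6 and 214 CPM. Kit and Gata2 are also known in endothelial cells, and Hdc in basophils and neutrophils, so their RNA in whole lung need not come from mast cells. No tested mast cell gene differed between KO and WT mice past the adjusted threshold. Groups did not overlap for 3 of the 8 tested genes, as for 32.6% of all genes tested. Of the 3, Cma1 and Ms4a2 were about 2-fold higher and Gata2 was slightly lower in KO mice, while the other protease genes varied more within each genotype than between the genotypes. Ms4a2 had enough counts to be tested mainly through the KO mice, where it was higher.

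The promoters of the mast cell genes are shown first because GATA2 is itself in the set and the GATA factors bind the core GATAA. RefSeq promoter windows of 300 bases, from 250 before to 50 after the start site in GRCm38.p6, were found for 8 of the 9 genes, and Tpsb2 had none. GATAA, or TTATC on the other strand, was present in the windows of Cma1, Mcpt4, Cpa3, Ms4a2 and Fcer1a, and absent from both windows of Kit, both of Gata2 and that of Hdc. Of all 32851 windows of this length, 25.4% held the motif. Below are the windows of the protease genes and of Ms4a2, the gene with the most matches, 5′ to 3′ on the strand of the gene, with GATAA or TTATC in capitals. The windows are chr14:55944626-55944925 for Cma1, chr14:56062261-56062560 for Mcpt4, chr3:20242132-20242431 for Cpa3 and chr19:11623670-11623969 for Ms4a2, each on the minus strand.
Cma1: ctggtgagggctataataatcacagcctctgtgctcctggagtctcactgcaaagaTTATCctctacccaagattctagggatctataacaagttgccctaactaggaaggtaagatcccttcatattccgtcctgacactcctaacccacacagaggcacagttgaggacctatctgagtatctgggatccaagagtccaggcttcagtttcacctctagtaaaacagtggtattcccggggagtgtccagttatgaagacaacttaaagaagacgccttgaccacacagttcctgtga
Mcpt4: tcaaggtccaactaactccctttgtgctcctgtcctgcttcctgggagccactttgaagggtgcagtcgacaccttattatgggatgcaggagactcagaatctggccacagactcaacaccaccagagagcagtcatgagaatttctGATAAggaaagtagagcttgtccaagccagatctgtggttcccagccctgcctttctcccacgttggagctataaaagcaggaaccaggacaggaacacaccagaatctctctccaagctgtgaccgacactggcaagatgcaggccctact
Cpa3: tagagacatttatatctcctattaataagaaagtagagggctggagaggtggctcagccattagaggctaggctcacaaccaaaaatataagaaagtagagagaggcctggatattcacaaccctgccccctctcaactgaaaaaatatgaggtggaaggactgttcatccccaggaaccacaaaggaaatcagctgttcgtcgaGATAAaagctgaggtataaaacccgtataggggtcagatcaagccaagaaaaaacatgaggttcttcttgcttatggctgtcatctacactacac
Ms4a2: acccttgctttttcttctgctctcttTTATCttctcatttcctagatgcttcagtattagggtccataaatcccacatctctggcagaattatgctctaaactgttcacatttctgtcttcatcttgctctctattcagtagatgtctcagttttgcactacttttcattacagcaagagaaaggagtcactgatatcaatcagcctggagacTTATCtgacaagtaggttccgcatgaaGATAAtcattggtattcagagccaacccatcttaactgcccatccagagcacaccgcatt
A match describes these letters only, and no factor binding was measured here.

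The granule proteases are the products by which mature mast cells are usually recognised. Cma1 (ENSMUSG00000022225, GRCm38 chromosome 14 from 55941451 to 55944675, minus strand) encodes a chymase, mouse mast cell protease 5. It had 19, 27 and 26 counts (WT4 to WT6) and 27, 128 and 39 counts (KO4 to KO6). On library sizes scaled by TMM, a method that corrects for composition, these were 0.764, 1.29 and 0.840 CPM in WT mice and 1.32, 2.68 and 1.92 CPM in KO mice. Each KO mouse was above each WT mouse, but KO4 exceeded WT5 by little. The means were 0.966 ± 0.286 CPM in WT and 1.97 ± 0.683 CPM in KO mice (SD, n = 3 each). The log2 fold change of KO against WT mice, given here as the log2 difference, was 1.08 (standard error 0.326, 95% interval 0.31 to 1.84), and its p-value was 0.0127 before and 0.0964 after Benjamini-Hochberg adjustment over 17037 genes in edgeR's quasi-likelihood test. This missed the threshold of 0.05. The two-sided exact permutation test gave p = 0.1, the smallest that 3 mice against 3 allow.

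Mcpt4 (ENSMUSG00000061068, chromosome 14 from 56059629 to 56062313, minus strand) encodes the chymase of connective tissue mast cells. It had 16, 34 and 23 counts (WT4 to WT6) and 8, 99 and 16 counts (KO4 to KO6), or 0.644, 1.63 and 0.743 CPM against 0.391, 2.07 and 0.789 CPM. The groups overlapped, with the highest and the lowest of the 6 values both in KO mice. The log2 difference was 0.25 (standard error 0.609, 95% interval -1.18 to 1.68, adjusted p = 0.841, edgeR). Cpa3 (ENSMUSG00000001865, chromosome 3 from 20215620 to 20242181, minus strand) encodes the mast cell carboxypeptidase, which is stored with the chymases. Its 6, 30 and 24 counts in WT mice and 10, 81 and 20 counts in KO mice were 0.241, 1.44 and 0.775 CPM against 0.488, 1.70 and 0.986 CPM. WT5 was above KO4 and KO6, and the log2 difference of 0.48 (standard error 0.622, 95% interval -0.99 to 1.94) had an adjusted p of 0.680 in edgeR. A microRNA gene, Mir7007, lies within Cpa3 and had 0 counts.

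Tpsb2 (ENSMUSG00000033825, chromosome 17 from 25366305 to 25369098, plus strand) encodes a tryptase, mouse mast cell protease 6. It had 2, 22 and 11 counts (WT4 to WT6) and 1, 50 and 16 counts (KO4 to KO6), or 0.0804, 1.05 and 0.355 CPM against 0.0488, 1.05 and 0.789 CPM. WT4 and KO4 were under 3 counts, the smallest number taken as detected, and WT5 was level with KO5. The spread between the highest and the lowest mouse was 21.6-fold for Tpsb2, 7.03-fold for Cpa3, 5.31-fold for Mcpt4 and 3.51-fold for Cma1. The log2 difference of Tpsb2 was 0.52 (standard error 0.911), and its 95% interval, -1.62 to 2.66, reached past 1.5 on either side, the fold threshold of the study. A difference between the genotypes of that size could not be seen in Tpsb2 over this spread between mice (adjusted p = 0.769, edgeR).

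**Figure D1:**
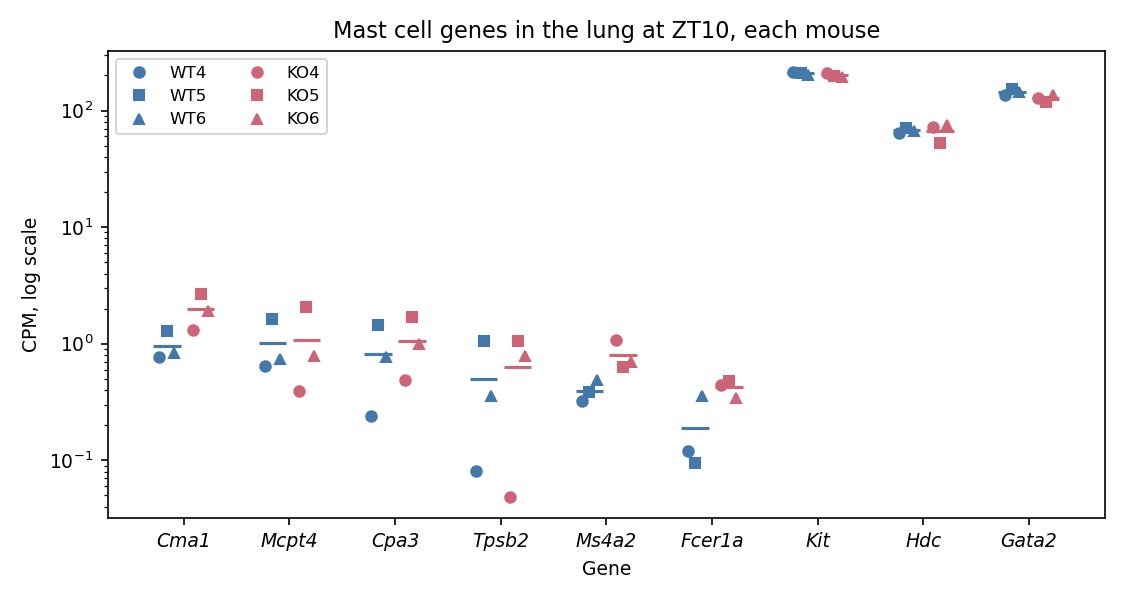
CPM on TMM-scaled library sizes (log axis) of the 9 mast cell genes in each WT mouse (blue) and KO mouse (red), with short lines at the group means (n = 3). The protease and IgE receptor genes lie at or below 2.68 CPM, with KO values above all WT values for Cma1 and Ms4a2 alone among these 6, and Kit, Hdc and Gata2 lie above 50 CPM.

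The IgE receptor is built from an alpha chain that binds IgE (Fcer1a), a beta chain that amplifies the signal (Ms4a2) and a gamma chain shared with other Fc receptors (Fcer1g). Ms4a2 (ENSMUSG00000024680, chromosome 19 from 11615523 to 11623719, minus strand) had 8, 8 and 15 counts (WT4 to WT6) and 22, 30 and 14 counts (KO4 to KO6). These were 0.322, 0.383 and 0.485 CPM in WT mice and 1.07, 0.629 and 0.691 CPM in KO mice. All 3 KO mice were above all 3 WT mice, and KO4, which was low in the proteases, was the highest. The log2 difference was 0.95 (standard error 0.323, 95% interval 0.19 to 1.71), and its p-value was 0.0211 before and 0.125 after adjustment in edgeR. Ms4a2 passed the filter on low counts in WT6 and the 3 KO mice, and the KO mice alone would have sufficed. Fcer1a (ENSMUSG00000005339, chromosome 1 from 173221284 to 173227214, minus strand) had 3, 2 and 11 counts in WT mice and 9, 23 and 7 counts in KO mice, or 0.121, 0.0958 and 0.355 CPM against 0.440, 0.482 and 0.345 CPM. It reached the filter's 0.434 CPM in KO4 and KO5, 1 mouse short of the 3 required, and was not tested. WT6 was level with KO6, so the groups overlapped.

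Basophils also carry the IgE receptor, and the summed level of 5 genes found in them was higher in KO mice too, at 8 to 45 counts per mouse. The 5 basophil genes followed (Mcpt8, Prss34, Cd200r3, Il4, Il13) summed to between 0.322 and 0.646 CPM in WT mice and between 0.838 and 2.22 CPM in KO mice. None of the 5 reached the filter, and Il13 was at 0 in 5 of the 6 mice. Cd200r3, a surface receptor of basophils and mast cells and the one with the highest CPM, had 3, 3 and 8 counts in WT mice and 10, 20 and 17 counts in KO mice. Il4 had 2, 4 and 5 counts in WT mice and 8, 15 and 13 counts in KO mice. The groups overlapped for the proteases Mcpt8 and Prss34. Mcpt8 had 2, 2 and 4 counts in WT mice and 3, 2 and 10 counts in KO mice. For Prss34 these were 1, 3 and 3 counts and 0, 3 and 5 counts. The part of basophils in the values of Ms4a2 and Fcer1a was not tested.

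Kit, Hdc and Gata2 were measured far more precisely, at 1478 to 9394 counts per mouse. Kit (ENSMUSG00000005672, chromosome 5 from 75574916 to 75656722, plus strand) had 214, 212 and 200.2 CPM (WT4 to WT6) and 210, 197 and 194 CPM (KO4 to KO6). The groups overlapped, and the 95% interval of its log2 difference, -0.06 (standard error 0.0551, adjusted p = 0.546, edgeR), ran from -0.19 to 0.07. Hdc (ENSMUSG00000027360, chromosome 2 from 126593667 to 126619299, minus strand), the enzyme that makes histamine from histidine, had 64.2, 71.4 and 67.3 CPM in WT mice and 72.2, 52.6 and 74.7 CPM in KO mice. KO5 held the lowest value and KO6 the highest, and the log2 difference was -0.03 (standard error 0.130, 95% interval -0.33 to 0.28, adjusted p = 0.923, edgeR).

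Gata2 (ENSMUSG00000015053, chromosome 6 from 88193891 to 88207032, plus strand) had 135, 153 and 145 CPM (WT4 to WT6) and 128, 119 and 135 CPM (KO4 to KO6). Each KO mouse was below each WT mouse, although KO6 and WT4 were almost level. The means were 144 ± 9.11 CPM in WT and 127 ± 8.10 CPM in KO mice (SD, n = 3 each). The log2 difference was -0.18 (standard error 0.0697, 95% interval -0.34 to -0.02), and its p-value was 0.0348 before and 0.160 after adjustment in edgeR. Of the 9 endothelial genes followed, 0 passed the adjusted threshold in either edgeR test or in DESeq2 and 0 had an unadjusted p under 0.05, with a median log2 difference of -0.07, and they summed to between 3787 and 4186 CPM in WT mice and between 3632 and 4406 CPM in KO mice. The part of endothelial cells in the levels of Kit and Gata2 was not tested.

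**Figure D2:**
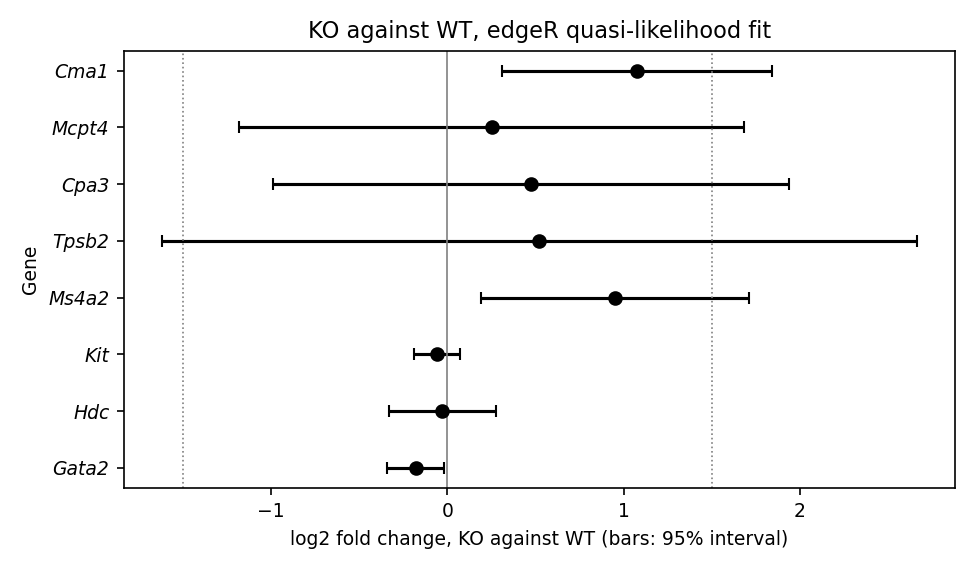
Log2 fold change of KO against WT mice with its 95% interval for the 8 mast cell genes tested in edgeR's quasi-likelihood fit, with dotted lines at -1.5 and 1.5. The intervals of Cma1, Ms4a2 and Gata2 exclude 0 before adjustment for 17037 genes, and that of Tpsb2 spans -1.62 to 2.66.

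As a set, 8 of the 9 genes were tested and 0 passed an adjusted p of 0.05 in edgeR's quasi-likelihood test, nor did any of the 8 in edgeR's exact test or of the 6 that DESeq2 gave an adjusted p (all but Ms4a2 and Tpsb2), while 6.39% of all genes tested passed in the first. Both that threshold and a log2 difference of at least 1.5 in size were met by 0 of the 8 genes and by 0.64% of all genes. At an unadjusted p under 0.05 there were 3 of 8 (Cma1, Ms4a2 and Gata2), against 25.5% of all genes tested. Of these, Ms4a2 had reached the filter on low counts in WT6 and the 3 KO mice, so it was tested through the group where it was high. Groups did not overlap for the same 3 genes, 2 of them higher and 1 lower in KO mice, where 32.6% of all genes did not overlap, 17% higher and 15.6% lower. The median log2 difference of the 8 genes was 0.36, with 5 above and 3 below 0, and that of all genes tested was 0.00. The median of the 4 protease genes was 0.50. In whole lung, fewer cells of a type and less RNA per cell cannot be told apart.

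The difference between the genotypes in Mcpt4, Cpa3 and Tpsb2 depended on single mice. Without KO5, the log2 difference was -0.73 for Mcpt4, -0.12 for Cpa3 and -0.17 for Tpsb2, and without WT5 it was 0.74, 1.08 and 1.55. Cma1 stayed between 0.76 and 1.32 and Ms4a2 between 0.70 and 1.14 as mice were omitted 1 at a time, and neither passed the adjusted threshold then. Kit stayed between -0.10 and -0.04, and Gata2 between -0.23 and -0.14.

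**Figure D3:**
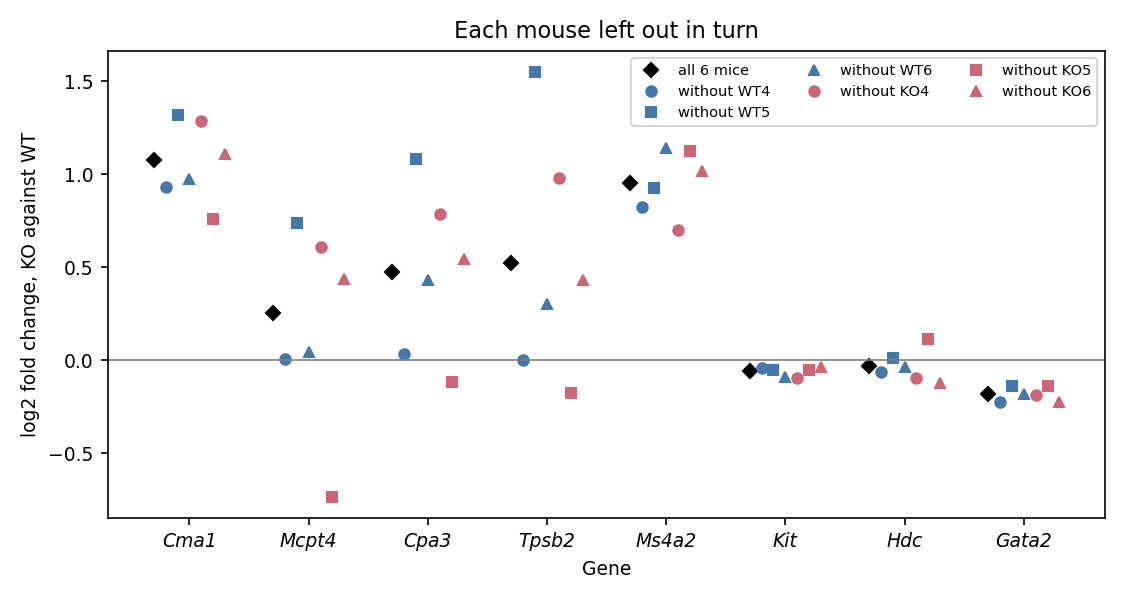
Log2 fold change of KO against WT mice for the 8 mast cell genes tested, with all 6 mice (diamonds) and without each WT mouse (blue) or KO mouse (red). The values of Mcpt4, Cpa3 and Tpsb2 fall below 0 without KO5, and those of Cma1 and Ms4a2 stay above 0.69.

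Per kilobase of merged exons, the order of levels over the 6 mice was Gata2 (25.2 ± 2.24 CPM per kb, SD, n = 6), Kit (23.0 ± 0.955), Hdc (10.5 ± 1.26), Cma1 (1.35 ± 0.665), Mcpt4 (0.943 ± 0.591), Cpa3 (0.618 ± 0.366), Tpsb2 (0.353 ± 0.290), Fcer1a (0.307 ± 0.162) and Ms4a2 (0.212 ± 0.0969). The ranges of Kit and Hdc, and of Hdc and Cma1, did not overlap. Those of all other neighbours did. Within each mouse, however, Mcpt4 was above Cpa3 in 6 of 6 mice and Cpa3 above Tpsb2 in 6 of 6. Other tryptase and chymase genes were near 0. Tpsab1, a second tryptase known to be defective in C57BL/6 mice, had at most 2 counts in a mouse, and Mcpt1 and Mcpt2, proteases of mucosal mast cells, had at most 2 and 1.

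The 4 protease genes varied together from mouse to mouse. Their summed level was 1.73, 5.41 and 2.71 CPM (WT4 to WT6) and 2.25, 7.5 and 4.49 CPM (KO4 to KO6). In both genotypes the mouse numbered 5 was highest, 6 came next and 4 was lowest, although the labels give no link between mice of the same number. Among the 15376 genes outside the set with a mean of at least 1 CPM, the 10 nearest to the mean protease profile over the 6 mice, by root mean square difference of log2 CPM centred on each gene's mean, were Adipoq, Fabp4, Thbs2, Plin4, Myl1, Cdca5, C1qtnf9, Plin1, Tmem45b and Car3, at 0.286 to 0.451 log2 units. Adipoq, which encodes the fat cell hormone adiponectin, was the nearest. Fabp4, Plin1 and Plin4 encode proteins of fatty acid transport and of the lipid droplet, and Car3 a carbonic anhydrase abundant in fat and muscle.

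Adipoq had 5.83, 13.9 and 8.89 CPM (WT4 to WT6) and 6.64, 17.5 and 9.91 CPM (KO4 to KO6). The 6 mice stood in the same order as for the summed protease genes. The ratio of Adipoq to that sum lay between 2.21 and 3.37 in all 6 mice. Adipoq was picked for its nearness to the protease profile in these same mice, so a like order and a narrow ratio follow from that choice. They are no separate evidence of a link. The genes that mark fat cells (Adipoq, Plin1, Cidec, Lep, Cfd, Ucp1) summed to between 58.5 and 126 CPM in WT mice and between 60.2 and 101 CPM in KO mice, lowest in WT4 and highest in WT5. Of the 5 tested, 0 passed the adjusted threshold in edgeR, with a median log2 difference of 0.12, while 2 had an unadjusted p under 0.05, 1 (Lep) passed in edgeR's exact test and 0 in DESeq2. The median ran from -0.20 without KO5 to 0.45 without WT5. Lep, the hormone leptin, had 1.05, 2.68 and 1.78 CPM in WT mice and 2.49, 15.7 and 4.88 CPM in KO mice, with a log2 difference of 2.11 (adjusted p = 0.113, edgeR), or 1.01 without KO5. Of the fits without 1 mouse, Lep passed in that without KO4 (adjusted p = 0.0488) and in none of the other 5. Cfd, the one with the highest level per kilobase, had 45.8 CPM in WT and 25.9 CPM in KO mice (adjusted p = 0.160, edgeR). Likeness over 6 mice is a description, and the part of fat tissue in the protease values was not tested.

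**Figure D4:**
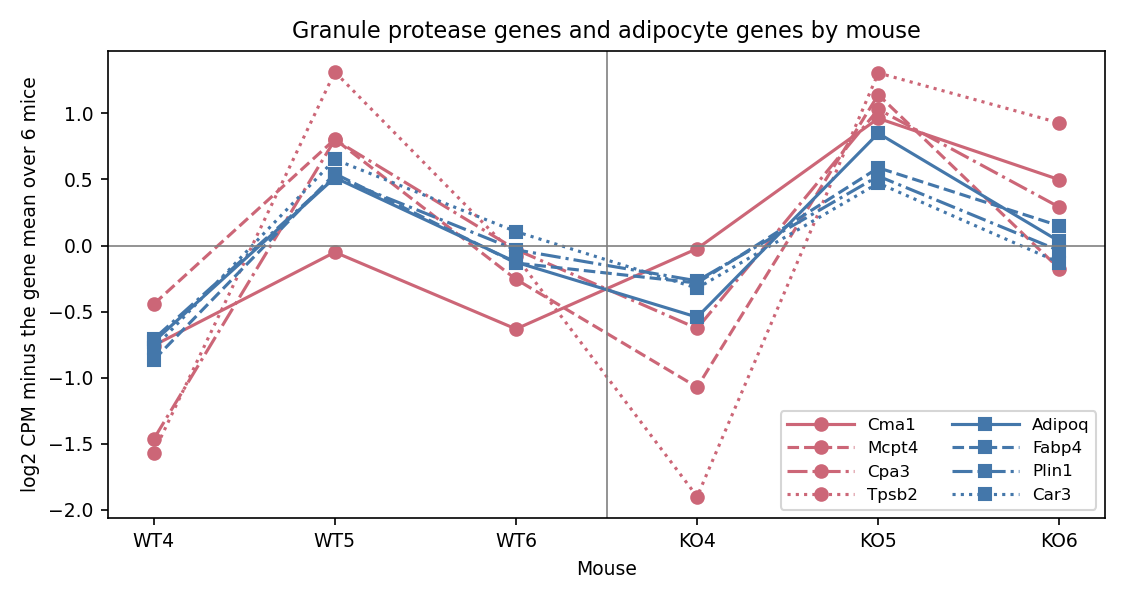
Log2 CPM minus the gene's mean over the 6 mice, for the 4 granule protease genes (red) and for Adipoq, Fabp4, Plin1 and Car3, among the 10 genes nearest to their mean profile (blue), where lines join the points of 1 gene. In both genotypes all 8 genes are highest in the mouse numbered 5 and lowest in the mouse numbered 4.

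Genes that act with the members were followed as lists. Of 17 other genes associated with mast cells, 7 were tested and 1 passed, against 3.72% of all genes higher and 2.67% lower at the same threshold. These shares of all genes stand beside the count of every list below, and 1 call in a short list is little above them. Hpgds, the hematopoietic synthase of prostaglandin D2, which macrophages also carry, had 2.69 ± 0.646 CPM in WT and 6.61 ± 0.942 CPM in KO mice (mean ± SD, n = 3 each), with a log2 difference of 1.29 (standard error 0.205, adjusted p = 0.0227, edgeR). Smpx, the gene of that list with the highest level per kilobase and a gene of striated muscle, had a log2 difference of 0.03 (adjusted p = 0.987). Mrgprb2, the receptor by which connective tissue mast cells sense basic compounds, had 1 count in each WT mouse and 2, 4 and 3 counts (KO4 to KO6). It was under 3 counts in every WT mouse and in KO4. Mrgprb1, also on the list, went the other way, with 1, 9 and 6 counts (WT4 to WT6) and 0, 5 and 0 counts (KO4 to KO6). Neither was tested.

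Of the 17 genes of IgE receptor signalling, all tested, 7 rose and 0 fell in KO mice, with a median log2 difference of 0.62. Those that rose were Fcer1g (0.85), the kinases Lyn (0.44) and Btk (1.18), the adaptor Lcp2 (1.0), the exchange factor Vav1 (1.10), the phospholipase Plcg2 (1.10) and the phosphatase Ptpn6 (1.09), with adjusted p-values between 0.0162 and 0.0440 in edgeR. These genes act in most leukocytes. Lat, the adaptor of mast cells and T cells, had a log2 difference of 0.62 (adjusted p = 0.109), and Grb2, at the highest level per kilobase, 0.22 (adjusted p = 0.158). Without KO5 the median of the list was 0.38. Markers of monocytes, neutrophils, B cells and T cells were higher with them, and their part in these values was not tested. The 8 alveolar macrophage genes had a median log2 difference of 0.21, with 1 past the threshold and higher, and 0 without WT5. Their summed level overlapped between the groups, at 591 to 905 CPM in WT and 702 to 929 CPM in KO mice. Of 8 monocyte genes 7 rose, but 0 passed without WT5 or without WT6, 3 without KO6 and 4 without WT4. Of 6 neutrophil genes tested 3 rose, with 2 past the threshold without WT6 and 0 without WT4, WT5 or KO6. The 8 B cell genes had a median log2 difference of 1.90 with 0 past the threshold in edgeR's quasi-likelihood test, all 8 at an unadjusted p under 0.05, 8 past in its exact test and 7 in DESeq2. Without KO5 their median was 0.99, with 7 past the threshold, and without KO4 it was 2.20, also with 7. The 8 T cell genes had a median of 0.82, or 0.42 without KO5, with 0 past the threshold in the quasi-likelihood test, 7 at an unadjusted p under 0.05, 2 past in the exact test and 5 in DESeq2. Without KO4, 4 of them passed, and without KO5, 1. The summed neutrophil genes lay between 53.0 and 88.1 CPM in WT mice and between 138 and 159 CPM in KO mice, the summed monocyte genes between 1683 and 1745 and between 1807 and 2105, the summed T cell genes between 62.4 and 70.4 and between 76.5 and 170, and the summed B cell genes between 105 and 120 and between 206 and 842. Most of the monocyte sum was Ace, the monocyte gene that did not rise, at 1447 CPM in WT and 1461 CPM in KO mice. Its log2 difference was 0.01 (adjusted p = 0.945, edgeR). The 7 that rose had log2 differences between 0.57 (Csf1r) and 1.76 (Treml4), so the monocyte sum mainly shows the level of Ace. The B cell sum was 842 CPM in KO5 against 206 CPM in KO4 and 240 CPM in KO6. The 6 eosinophil genes, of which 4 were tested, 0 passed in either edgeR test or DESeq2 and 1 had an unadjusted p under 0.05, overlapped between the groups in their summed level, at 24.4 to 41.5 CPM in WT and 37.5 to 44.9 CPM in KO mice.

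Among growth factors and their receptors, 3 of 8 tested genes rose and 0 fell. Il33, an alarmin that activates mast cells, had 156 CPM in WT and 98.5 CPM in KO mice, a log2 difference of -0.67 with groups that did not overlap, and its adjusted p was 0.0625 in edgeR's quasi-likelihood test, 0.0201 there without a filter, 0.00529 in edgeR's exact test and 0.000599 in DESeq2. Il9r, the receptor of the mast cell growth factor IL-9, had 3.83 ± 0.442 CPM in WT and 10.04 ± 2.71 CPM in KO mice (mean ± SD, n = 3 each), with a log2 difference of 1.39 (standard error 0.212, adjusted p = 0.0210, edgeR). Csf2rb and Csf2rb2, beta chains of receptors for IL-3, rose by 0.75 and 0.68 on the log2 scale. Kitl, the ligand of KIT, had 352 CPM in WT and 286 CPM in KO mice. Its groups did not overlap, although KO6 (326 CPM) and WT6 (332 CPM) were almost level. The log2 difference of Kitl was -0.30 (standard error 0.124), and its p-value was 0.0464 before and 0.187 after adjustment in edgeR. Il3 and Il9 were at 0 counts in all 6 mice. Of 8 transcription factor genes 2 rose, Spi1 (log2 difference 0.85, adjusted p = 0.0121) and Lyl1 (0.88, adjusted p = 0.0274), both also used by other blood cells. Tal1 had 29.8 CPM in WT and 23.9 CPM in KO mice, with groups that did not overlap. Its log2 difference was -0.32 (adjusted p = 0.0678, edgeR). In DESeq2, and in the fit without KO4, 1 gene of this list was past the threshold and lower in KO mice. Mitf, the factor that acts beside KIT in mast cells, had a log2 difference of -0.05, Gata1 of 0.29 and Cebpa, at the highest level per kilobase, of -0.01.

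For histamine, 1 of 6 tested genes rose and 1 fell, where 3.72% of all genes tested were higher and 2.67% lower past the threshold. The receptor Hrh2 had 0.938 ± 0.112 CPM in WT and 2.08 ± 0.348 CPM in KO mice (mean ± SD, n = 3 each), with a log2 difference of 1.14 (standard error 0.208, adjusted p = 0.0287, edgeR). The receptor Hrh3 had 13, 13 and 22 counts in WT mice and 6, 8 and 5 counts in KO mice, a log2 difference of -1.47 (standard error 0.330, adjusted p = 0.0470, edgeR). These were 0.523, 0.622 and 0.711 CPM in WT mice and 0.293, 0.168 and 0.247 CPM in KO mice. Hrh3 reached the filter's 0.434 CPM in WT mice alone, so it was tested only through the group where it was high. Hnmt, which inactivates histamine and was at the highest level per kilobase, had a log2 difference of -0.11 (adjusted p = 0.530). Of 8 genes of prostaglandin D2 and leukotriene C4, Alox5ap, the protein that presents arachidonic acid to 5-lipoxygenase, rose (log2 difference 0.46, adjusted p = 0.0492), while Ltc4s had 0.19 and Ptgs1, at the highest level per kilobase, 0.05. Of 10 genes of the granule matrix and its release, Stxbp2, a partner of the fusion machinery, rose (0.29, adjusted p = 0.0211), and Vamp8, at the highest level per kilobase, had -0.11.

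These calls rested on few mice. Of the 17 genes named as changed in the 7 lists, 0 passed without WT5 and 0 without WT6, 4 passed without WT4 (Alox5ap, Csf2rb, Lcp2 and Spi1), 2 without KO6 (Lcp2 and Spi1), 12 without KO5 and 14 without KO4. In DESeq2 16 of the 17 passed, while Hrh3 was given no adjusted p there. Hrh3 also missed the threshold without a filter on low counts and was not tested when at least 10 counts were required in every library.

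**Figure D5:**
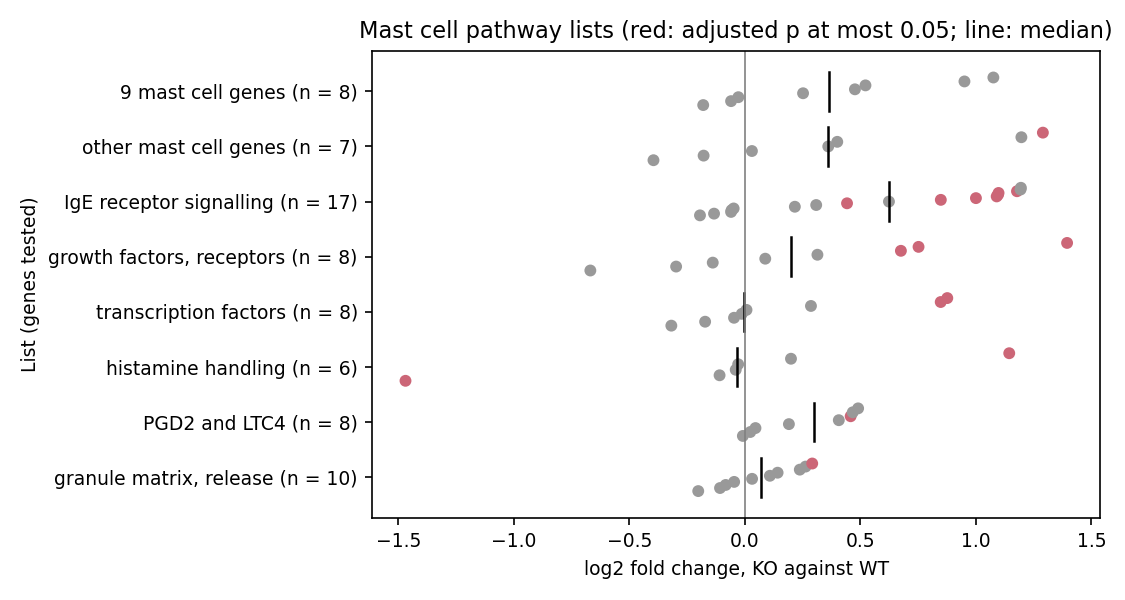
Log2 fold change of KO against WT mice for each tested gene of the 9 mast cell genes and of 7 lists, with genes at an adjusted p of at most 0.05 in red and the median of each list as a black line. The mast cell genes hold no red point, and IgE receptor signalling holds 7 of 17.

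The tissue matched its label, since Sftpc, the surfactant gene of type 2 alveolar cells, averaged 12824 CPM in WT and 10911 CPM in KO mice. The genes of smooth muscle, airway epithelium and alveolar epithelium had median log2 differences of -0.54, -0.41 and -0.19, with 0 past the threshold in edgeR's quasi-likelihood test. At an unadjusted p under 0.05 these were 5 of 7, 3 of 6 and 2 of 6, with 1, 0 and 0 past in edgeR's exact test and 4, 2 and 2 in DESeq2. Without KO5 the medians of airway and alveolar epithelium were -0.24 and -0.13. The 8 immediate early and heat shock genes had a median of -0.75 with 3 at an unadjusted p under 0.05 and 0 past the threshold in either edgeR test or DESeq2, and WT6 was the highest mouse with a summed 719 CPM. Without WT6 their median was 0.19. Xist lay between 714 and 993 CPM in all 6 mice, and 4 Y-linked genes had at most 1 count each outside KO5, where they had 2 to 9. Summed, these 5 genes, nearly all Xist, lay between 714 and 751 CPM in WT and between 820 and 993 CPM in KO mice. Xist, the only 1 tested, had a log2 difference of 0.32 and an unadjusted p under 0.05. It passed the adjusted threshold in edgeR's exact test and in DESeq2 but not in the quasi-likelihood test. The labels give no sex, litter or batch for single mice.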

How the data were processed

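RNA from whole lung was sequenced with a stranded mRNA library kit, 1 library per mouse, in 3 WT and 3 KO mice, grouped by the labels. The authors trimmed reads with Trimmomatic 0.36, aligned them to GRCm38 with STAR 2.5.3a and counted them per gene with HTSeq 0.6.0, per the submitters' processing notes, and deposited raw counts for 47069 genes. The annotation release and strand setting of the counting are not given in the sources used here, so reads of overlapping genes may be shared. Of the 9 mast cell genes only Cpa3 overlaps another annotated gene. Of the exon sequence of Cma1, Mcpt4, Ms4a2 and Hdc, 5.38%, 5.48%, 2.1% and 0.141% of 50-base words recur in another gene.

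Genes were kept with edgeR's default filter (a minimum count of 10, which came to 0.434 CPM in at least 3 mice), scaled by TMM and tested with the quasi-likelihood fit of edgeR 4.0.16 in R 4.3.3, KO against WT, with Benjamini-Hochberg adjustment over 17037 genes. Thresholds were an adjusted p of 0.05 and, with it, a log2 fold change of 1.5. Standard errors are the fold change divided by the root of its F statistic. Per-kilobase levels used merged exons of GENCODE M21. The scripts were tested on simulated data. Alternatives were other scalings and filters, edgeR's exact test, DESeq2 1.42.0, the replicate number as a block and leaving out each mouse. The members and lists were chosen with earlier results of these data known. Named beside the members are the genes of the lists past the threshold or of highest level and the 10 genes of nearest profile. Others (among them Lat, Kitl, Il33, Lep, Mitf, Gata1, Tal1, Ltc4s, Mrgprb1, Mrgprb2, Il4, Mcpt8, Prss34, Tpsab1, Mcpt1 and Mcpt2) were named after their values were seen. A count of 3 was taken as the smallest detected, which is 0.0629 CPM in KO5 and 0.148 CPM in KO6, and covers counting error only.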

Additional observations from a re-analysis of the deposited data

How the results depend on the processing

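No mast cell gene with an adjusted p passed the threshold in any of the 13 alternatives (DESeq2 gave none for Ms4a2 and Tpsb2), and the adjusted p of Cma1 ranged from 0.0542 to 0.243, of Ms4a2 from 0.114 to 0.288 and of Gata2 from 0.138 to 0.388. Directions turned without KO5 for Mcpt4 (-0.73), Cpa3 (-0.12), Tpsb2 (-0.17) and Hdc (0.12), and without WT5 for Hdc (0.01). Over all omitted mice the log2 fold change ran from -0.73 to 0.74 for Mcpt4, from -0.12 to 1.08 for Cpa3, from -0.17 to 1.55 for Tpsb2 and from -0.12 to 0.12 for Hdc. The median of the mast cell genes, 0.36 with all mice, ran from -0.085 without KO5 to 0.79 without WT5, and was -0.042 when at least 10 counts were required in every library, which left 4 of the genes to test. Of all genes, 1089 passed the adjusted threshold, against 1913 in DESeq2, 66 with a replicate block, and from 1 (without WT5) to 1278 (without KO4) with a mouse omitted. Both thresholds were passed by 109 genes, against 211 without a filter, 203 in edgeR's exact test, 169 in DESeq2, 14 with a replicate block, and from 1 to 214 with a mouse omitted. The cause of these shifts was not tested. The labels tie mice of the same number to nothing shared, and their deviations from the group means correlated at -0.03 (4), -0.15 (5) and -0.02 (6), so the replicate block was no paired analysis, and it changed no call of a mast cell gene, while 0 of the 17 genes called in the 7 lists passed with it. The 6 genes of the proteases and the IgE receptor had 1 to 128 counts per mouse, and how far depth rather than the spread between mice limits them was not tested.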
